A study of Rattus norvegicus with 12 samples.

Results

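The genes described here are 10 members of the circadian clock: Clock, Arntl, Per1, Per2, Per3, Cry1, Cry2, Nr1d1, Nr1d2 and Dbp. They were taken by symbol from a table of estimated gene counts for rat brain, in which all 10 were present among 18800 symbols. Every one of the 10 passed the filter on low counts, which left 15487 genes for testing. The samples are brain tissue of Sprague-Dawley rats in 3 groups, with 4 labelled samples in each. The electroacupuncture group had middle cerebral artery occlusion and reperfusion (MCAO/R, a blocked and reopened brain artery), was restrained, and received needles carrying a weak current at the points Tianfu, Chize, Kongzui and Taiyuan. The model group had the same operation and the same restraint without the needles. The control group was restrained only, per its labels, while the table names its columns as sham. All 3 groups were therefore restrained. The sources used here give no brain region or side, no age, no interval after the operation, no hour of tissue collection and no light schedule. According to its title, the study is about synaptic plasticity.

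The mammalian clock is a loop of transcription that runs in nearly every cell, neurons and glia included. CLOCK and BMAL1, the product of Arntl, bind together at E-boxes and switch on the Per and Cry genes, whose proteins return to the nucleus and block them. The same pair of activators drives Nr1d1 and Nr1d2, which encode the REV-ERB repressors, and these hold down Arntl through ROR elements. It also drives Dbp, an activator that binds D-boxes in Per genes and in many output genes. In most tissues Arntl therefore peaks when Dbp, Nr1d1 and Nr1d2 are low. In the brain Per1 also responds within the hour to neuronal activity through CREB and to glucocorticoids.

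3 promoter windows are shown because they hold letters that match the element types named above: the ROR element, the D-box and the E-box. They come from RefSeq on the build GRCr8 and span 250 bases before to 50 after an annotated gene start, which is position 1; the base before it is -1. Windows were found for 9 of the 10 members, with 11 windows in all, because Clock and Nr1d1 have 2 each. The letters searched on both strands were CACGTG (E-box), CACGTT (a variant E-box), TTATGTAA (D-box), TGACGTCA (CRE, the CREB element) and the ROR element. The window of Arntl lies at chr1:176766078-176766377 on the plus strand, that of Per2 at chr9:99496944-99497243 on the minus strand and the second one of Nr1d1 at chr10:84229405-84229704 on the minus strand. Capitals mark the matches.
Arntl: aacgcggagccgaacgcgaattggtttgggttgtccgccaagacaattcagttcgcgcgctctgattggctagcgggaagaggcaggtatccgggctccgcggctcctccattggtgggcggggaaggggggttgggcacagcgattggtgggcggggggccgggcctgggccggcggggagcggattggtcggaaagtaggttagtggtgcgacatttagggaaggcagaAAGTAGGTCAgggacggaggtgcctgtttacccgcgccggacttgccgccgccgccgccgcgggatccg
Per2: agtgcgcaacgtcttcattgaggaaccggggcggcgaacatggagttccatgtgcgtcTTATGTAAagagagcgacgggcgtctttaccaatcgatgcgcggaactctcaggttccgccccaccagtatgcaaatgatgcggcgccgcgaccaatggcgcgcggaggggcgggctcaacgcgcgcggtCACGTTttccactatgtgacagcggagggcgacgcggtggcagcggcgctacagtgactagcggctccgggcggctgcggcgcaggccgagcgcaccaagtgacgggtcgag
Nr1d1: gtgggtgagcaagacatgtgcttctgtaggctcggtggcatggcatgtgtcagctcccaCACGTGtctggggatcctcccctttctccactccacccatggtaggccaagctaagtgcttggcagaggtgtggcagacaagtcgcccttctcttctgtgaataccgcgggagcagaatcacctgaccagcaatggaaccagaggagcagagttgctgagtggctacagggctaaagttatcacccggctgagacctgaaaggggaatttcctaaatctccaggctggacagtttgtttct

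The ROR element of Arntl occupied positions -19 to -10, and 0.245% of the 33469 rat promoter windows held these letters. Per2 held a D-box at -192 to -185 and the variant E-box at -62 to -57, which 0.893% and 4.83% of all windows held. The E-box of Nr1d1 stood at -191 to -186, against 6.42% of all windows. The variant E-box was also found in the window of Cry2 (-212 to -207) and in the first window of Nr1d1 (-174 to -169). The CRE letters, present in 1.83% of all windows, were in none of the members' windows, and no match overlapped another. The windows of Per1, Per3, Clock, Nr1d2 and Dbp held none of the letters searched. These matches describe letters in short windows and were not measured as binding sites.

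The table has 11 columns, 4 for electroacupuncture, 4 for the model and 3 for the controls, with totals of 8668148 to 11920799 counts. Both model samples and electroacupuncture B are each the sum of a pair of nearly identical columns, which stood 1.34 to 1.4 times the sampling variance apart (median squared difference over genes), while the 12 other pairs within groups stood 4.75 to 26.5 times apart. Counted this way there were 3 electroacupuncture samples (A to C), 2 model samples (A, B) and 3 control samples (A to C). Levels are given in CPM, counts scaled to a common library total after TMM normalization, and they compare samples for 1 gene, not genes with each other, because no transcript length enters. Neuronal, astrocyte, microglial and oligodendrocyte markers were all detected. Markers of brain regions and cell types differed between samples. The 8 hippocampal markers summed to 230 to 659 CPM with electroacupuncture (230 in A), 246 (model A) and 353 CPM (model B) after the operation alone, and 676 to 842 CPM in controls, and the 7 striatal markers to 130 to 3414 CPM (3414 in A), 216 to 524 CPM in the model and 119 to 315 CPM in controls. For model over control, 6 of the hippocampal markers were lower in estimate and 2 higher. Calb1 and Spock1 were above every control in model B (157 and 28.3 CPM) and below every control in model A (67.8 and 12.1 CPM). The 7 neocortical markers summed to 734 CPM in model B and to 145 to 213 CPM in the other 7 samples, and the 7 microglial ones to 490 CPM in electroacupuncture A, 307 CPM in model A and 103 to 164 CPM elsewhere. Markers of the suprachiasmatic nucleus, the master clock, and the anterior hypothalamus (5 of 7 in the table) summed to 22.5 to 36.5 CPM with electroacupuncture, 48.0 and 104 CPM in the model, and 16.5 to 22.3 CPM in controls. Only 3 of them, Vip, Rgs16 and Six3, passed the filter on low counts, and Avp, Six6, Lhx1 and Prok2 did not enter. Six3 measured 20.2 and 50.7 CPM in the model and 20.8 CPM in electroacupuncture A, where Vip was lowest (3.12 CPM). The sum therefore does not measure how much suprachiasmatic tissue a sample held. Choroid plexus markers summed to 1357 CPM in control C, mostly Ttr (1344 CPM), and to 6.14 to 90.7 CPM in the other samples. Control C held the lowest Nr1d1, Nr1d2 and Dbp of the 8 samples. Red cell markers summed to 107 CPM in electroacupuncture C and to 1042 to 5755 CPM in the other samples. None of the listed markers in the table was at 0 throughout a group. These levels stand beside every clock gene below, and their part in the results was not tested.

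Counts of the members per column ran from 58 for Per3 to 3149 for Dbp. Between the 2 columns of a near-identical pair, which were picked for their likeness and exist for no control sample, the higher value of a member was a median of 1.04 times the lower one over 30 comparisons, at most 1.28 times for Per3 and at most 1.14 times for the rest. The labels do not say whether such a pair is 1 animal measured again. Across the 8 samples the SD of log2 CPM was 0.18 for Clock, Nr1d2 and Cry2, 0.25 to 0.29 for Nr1d1, Per2, Cry1 and Per1, 0.36 for Dbp, 0.40 for Arntl and 0.53 for Per3. The members' median SD of 0.25 stood beside 0.35 over all tested genes and 0.29 over the 12067 genes whose mean reached 5 CPM. Arntl, Dbp and Per3 were thus the members that varied most, and the activator Clock and the repressors Nr1d2 and Cry2 the least.

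**Figure D1:**
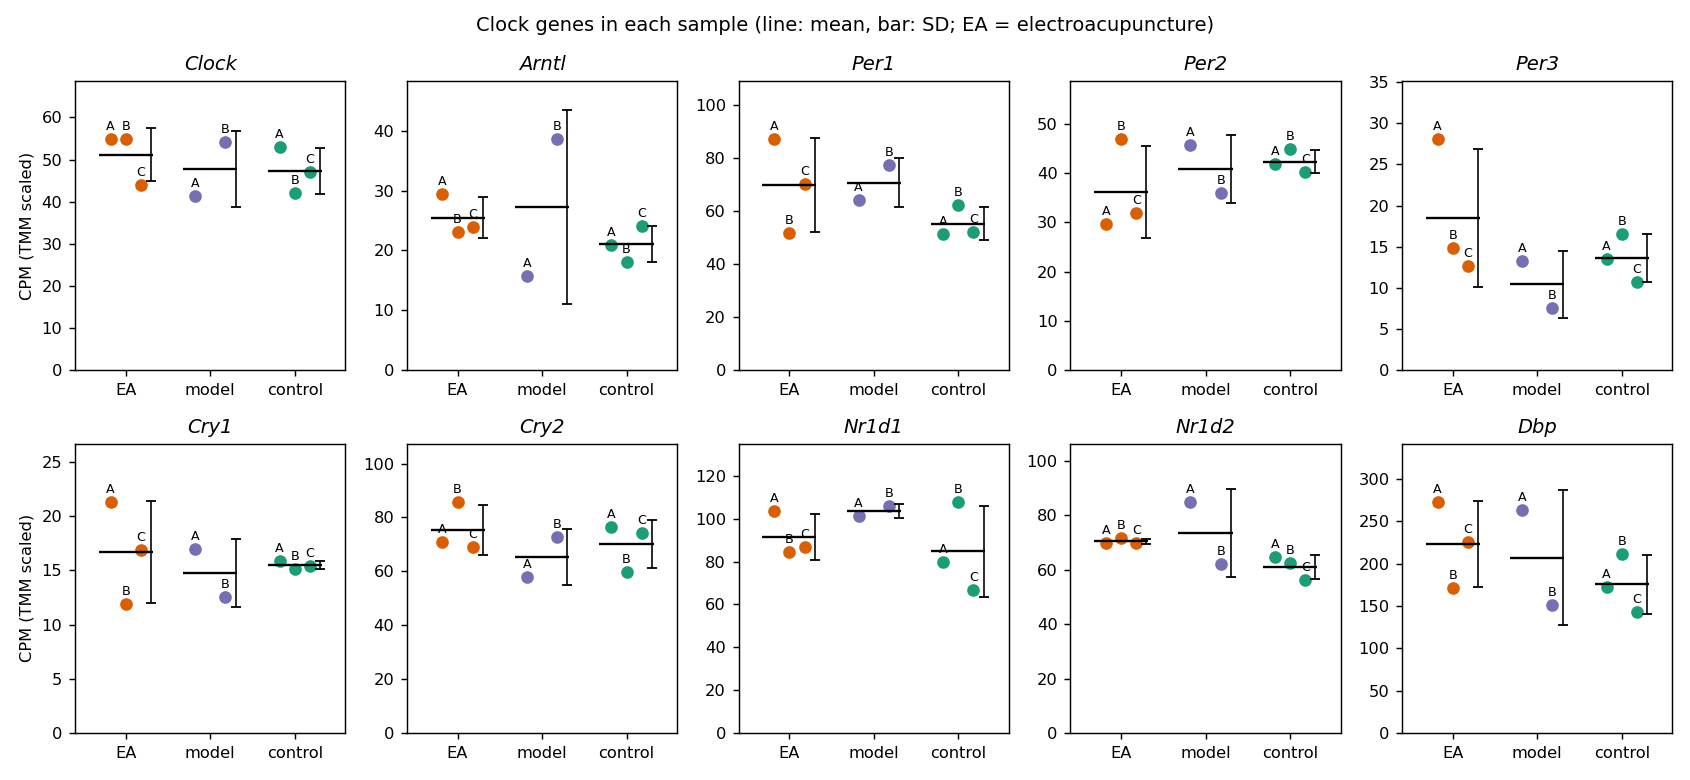
Level of each clock gene in CPM (vertical axis, from 0) by group (horizontal axis), with a point for each sample marked by its letter, a line at the group mean and a bar of 1 SD. The groups overlapped for most genes, the 2 model samples lay far apart for Arntl (38.6 and 15.8 CPM) and Dbp (150.5 and 263 CPM), and electroacupuncture A stood highest for Per3 at 28.1 CPM.

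Clock, which encodes one partner of the activating pair, measured 54.9, 54.8 and 43.9 CPM with electroacupuncture, 41.4 and 54.1 CPM in the model, and 53, 42.1 and 47 CPM in controls. The 3 groups overlapped fully. Model over control gave a log2 fold change of 0.01 (SE 0.18, adjusted p = 0.98 by edgeR's quasi-likelihood test), electroacupuncture over model 0.10 (SE 0.18, adjusted p = 0.87) and electroacupuncture over control 0.11 (SE 0.17, adjusted p = 0.878). With 95% intervals of 0.749- to 1.36-fold, 0.796- to 1.45-fold and 0.828- to 1.41-fold, Clock had the narrowest bounds beside Nr1d2 and Cry2.

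Arntl, which encodes the other partner (BMAL1), measured 29.4, 23.1 and 23.9 CPM with electroacupuncture, 15.8 (A) and 38.6 CPM (B) in the model, and 21, 18.1 and 24.1 CPM in controls. The model samples were the lowest and the highest of all 8, on either side of every other sample. Both columns of model B (323 and 383 counts) lay above both columns of model A (139 and 155 counts), and the 2 samples stood 2.45-fold apart. A larger gap between the same 2 samples was found for 10.5% of tested genes. The mean was 25.5 ± 3.42 CPM with electroacupuncture (SD, n = 3), 27.2 ± 16.2 CPM among model samples (SD, n = 2) and 21.1 ± 3.01 CPM among controls (SD, n = 3), and no comparison passed. The adjusted p-values of edgeR's quasi-likelihood test were 0.658 for model over control, 0.939 for electroacupuncture over model and 0.852 for electroacupuncture over control. The direction in the model depended on the sample: its log2 fold change over control of 0.37 was 0.87 without model A and -0.43 without model B, and that of electroacupuncture over model, -0.09, was -0.60 and 0.70.

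Per1, a period gene that reacts quickly to outside signals, measured 87.3, 51.9 and 70.2 CPM with electroacupuncture, 64.1 and 77.3 CPM in the model, and 51.2, 62.4 and 52.2 CPM in controls. Both model samples were above all 3 controls, by a small margin, while electroacupuncture B lay within the control range. It was the 1 member of 10 whose model samples were all above the controls, where 18.2% of tested genes had that order. The log2 fold change of model over control was 0.36 (SE 0.23, a 1.28-fold ratio with an interval of 0.887- to 1.85-fold, adjusted p = 0.513 by edgeR), and that of electroacupuncture over control was 0.34 (SE 0.21, adjusted p = 0.843). Without electroacupuncture A the estimate over control was 0.14, and without electroacupuncture B it was 0.51. Electroacupuncture and model means were close, at 69.8 ± 17.7 CPM (SD, n = 3) and 70.7 ± 9.3 CPM (SD, n = 2), with an interval of 0.682- to 1.43-fold for their ratio.

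Per2, a core period gene and partner of the cryptochromes, measured 29.7, 46.9 and 31.8 CPM with electroacupuncture, 45.8 and 36 CPM in the model, and 41.8, 44.9 and 40.2 CPM in controls. Electroacupuncture A and C were the 2 lowest samples, and electroacupuncture B was the highest. The log2 fold change was -0.05 (SE 0.22) for model over control, -0.17 (SE 0.22) for electroacupuncture over model and -0.22 (SE 0.20) for electroacupuncture over control, with edgeR adjusted p-values of 0.937, 0.803 and 0.843. Per2 was the member that ran opposite to Per1 in this table: electroacupuncture A held the highest Per1 and the lowest Per2.

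Per3, the period gene least needed for rhythm in mice, varied most. It measured 28.1, 14.8 and 12.7 CPM with electroacupuncture, 13.3 and 7.55 CPM in the model, and 13.6, 16.6 and 10.7 CPM in controls. Electroacupuncture A stood alone at the top and model B alone at the bottom, and the groups overlapped. The electroacupuncture mean of 18.5 ± 8.37 CPM (SD, n = 3) against the model mean of 10.4 ± 4.05 CPM (SD, n = 2) gave the widest estimate of any member, a 1.78-fold ratio with an interval of 0.909- to 3.47-fold (log2 fold change 0.83, SE 0.41, adjusted p = 0.449 by edgeR). Without electroacupuncture A that log2 fold change was 0.41, and without model A it was 1.29. Model over control gave -0.39 (SE 0.41, adjusted p = 0.701), which was -0.04 without model B and -0.85 without model A, and electroacupuncture over control 0.44 (SE 0.36, adjusted p = 0.843), which was 0.02 without electroacupuncture A.

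The cryptochromes encode the repressors that bind CLOCK and BMAL1 directly. Cry1 measured 21.3, 11.9 and 16.9 CPM with electroacupuncture, 17 and 12.5 CPM in the model, and 15.9, 15.1 and 15.4 CPM in controls. The controls lay close together, and the electroacupuncture samples held both the highest and the lowest value. Cry2 measured 71, 85.9 and 68.9 CPM with electroacupuncture, 58 and 72.7 CPM in the model, and 76.6, 59.8 and 74.1 CPM in controls, with full overlap. For both genes the log2 fold changes stayed between -0.10 and 0.20 in the 3 comparisons, and the edgeR adjusted p-values between 0.703 and 0.929. The intervals of Cry2 were the narrower ones, -0.52 to 0.32 on the log2 scale for model over control and -0.22 to 0.63 for electroacupuncture over model.

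The REV-ERB genes Nr1d1 and Nr1d2 encode heme-binding repressors of Arntl. Nr1d1 measured 104, 84.3 and 86.6 CPM with electroacupuncture, 101 and 106 CPM in the model, and 79.8, 108 and 66.5 CPM in controls. The controls spanned the values of both other groups, from the lowest to the highest of the 8 samples. Nr1d2 measured 69.7, 71.5 and 69.8 CPM with electroacupuncture, 85 and 62.2 CPM in the model, and 64.7, 62.5 and 56.2 CPM in controls. The 3 electroacupuncture samples were nearly equal and all above the controls; model A was higher still and model B within the control range. Nr1d2 was the 1 member of 10 with this order, which 5.98% of tested genes showed, and its mean of 70.4 ± 1.02 CPM (SD, n = 3) against 61.1 ± 4.44 CPM (SD, n = 3) gave a 1.15-fold ratio with an interval of 0.912- to 1.45-fold (log2 fold change 0.20, SE 0.14, adjusted p = 0.843 by edgeR). Against control, the model gave a log2 fold change of 0.27 (SE 0.16, adjusted p = 0.488 by edgeR) for Nr1d2 and 0.29 (SE 0.21, adjusted p = 0.571) for Nr1d1. That of Nr1d2 was 0.02 without model A and 0.47 without model B, and that of Nr1d1 was 0.50 without control B and 0.15 without control C. The Nr1d1 counts were partly fractional in all 11 columns, and the gene overlaps Thra, a thyroid hormone receptor, in RefSeq. Thra measured 381, 401 and 384 CPM with electroacupuncture, 390 and 359 CPM in the model, and 363, 359 and 390 CPM in controls. Per2 and Cry2 were also fractional in all 11 columns and Clock in 3, each overlapping a noncoding RNA, and Cry1 overlaps another gene with whole counts in every column. The sources used here do not say how shared reads were assigned.

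Dbp, the D-box activator and the usual reporter of clock output, measured 273, 171 and 225 CPM with electroacupuncture, 263 (A) and 151 CPM (B) in the model, and 172, 212 and 143 CPM in controls. Each group held high and low samples, and the groups overlapped. The means were 223 ± 51 CPM (SD, n = 3), 207 ± 79.8 CPM (SD, n = 2) and 175 ± 34.6 CPM (SD, n = 3). The log2 fold change was 0.24 (SE 0.31, adjusted p = 0.751 by edgeR) for model over control, 0.11 (SE 0.31, adjusted p = 0.92) for electroacupuncture over model and 0.35 (SE 0.27, adjusted p = 0.843) for electroacupuncture over control. The estimate for model over control was 0.58 without model B and -0.22 without model A.

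The comparison of model with control asks whether the operation changed the clock genes. None of the 10 passed edgeR's quasi-likelihood test at an adjusted p under 0.05, where 0.00646% of tested genes passed (1 gene of 15487). None had an unadjusted p under 0.05 either, where 13.8% of tested genes did. DESeq2 called 0 of 10 members and 4.91% of the genes it tested, and a fit that kept the 11 columns apart called 0 of 10 members and 7.37% of genes, with 0 of 10 members and 25.6% of genes at an unadjusted p under 0.05. The groups did not overlap for 1 of 10 members (Per1) and for 37.8% of genes. Estimates were positive for 6 members and negative for 4, with a median log2 fold change of 0.13, against 0.02 over all tested genes. Their median size was 0.25, and 0.30 over all genes. The widest bounds were a ratio of 0.395 for Per3 and of 2.26 for Arntl.

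The comparison of electroacupuncture with the model asks whether the treatment changed them after the operation. Again 0 of 10 passed (0% of tested genes did), and 0 of 10 had an unadjusted p under 0.05, against 13.5% of genes. DESeq2 called 0 of 10 members and 4.37% of genes. The fit of 11 columns called 0 of 10 members and 10.9% of genes, and gave 1 member, Per3, an unadjusted p under 0.05 (adjusted p = 0.143 with edgeR), where 26.7% of genes had one. Estimates were positive for 5 members and negative for 5, with a median of 0.04 (0.03 over all genes) and a median size of 0.14 (0.28 over all genes). The groups overlapped for all 10 members, whereas 24.6% of tested genes had them apart (12.9% above and 11.7% below the model).

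Electroacupuncture against control, which shares its samples with both other comparisons, called 0 of 10 members (0% of genes), with 0 of 10 at an unadjusted p under 0.05 (3.66% of genes). DESeq2 called 0 of 10 members and 0.0054% of genes, and the fit of 11 columns 0 of 10 members and 0% of genes, with 0 of 10 members and 6.54% of genes at an unadjusted p under 0.05. No member lay below the controls without overlap, an order that 4.88% of genes had. Estimates were positive for 9 members and negative for Per2 (50.8% of all genes were positive), with a median of 0.16 against 0.01 over all genes. The median size of 0.21 equalled that over all genes (0.21). The members' mean log2 difference from the control mean was 0.36 in electroacupuncture A and 0.07 in B and in C. Without A, the log2 fold change of Cry1 was -0.11, of Nr1d1 0.01 and of Per3 0.02. Those of Cry2 (0.14) and Nr1d2 (0.21) rose slightly. A missed threshold with 2 or 3 samples a group does not show that the clock genes were alike in the groups; the intervals give what remains possible.

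**Figure D2:**
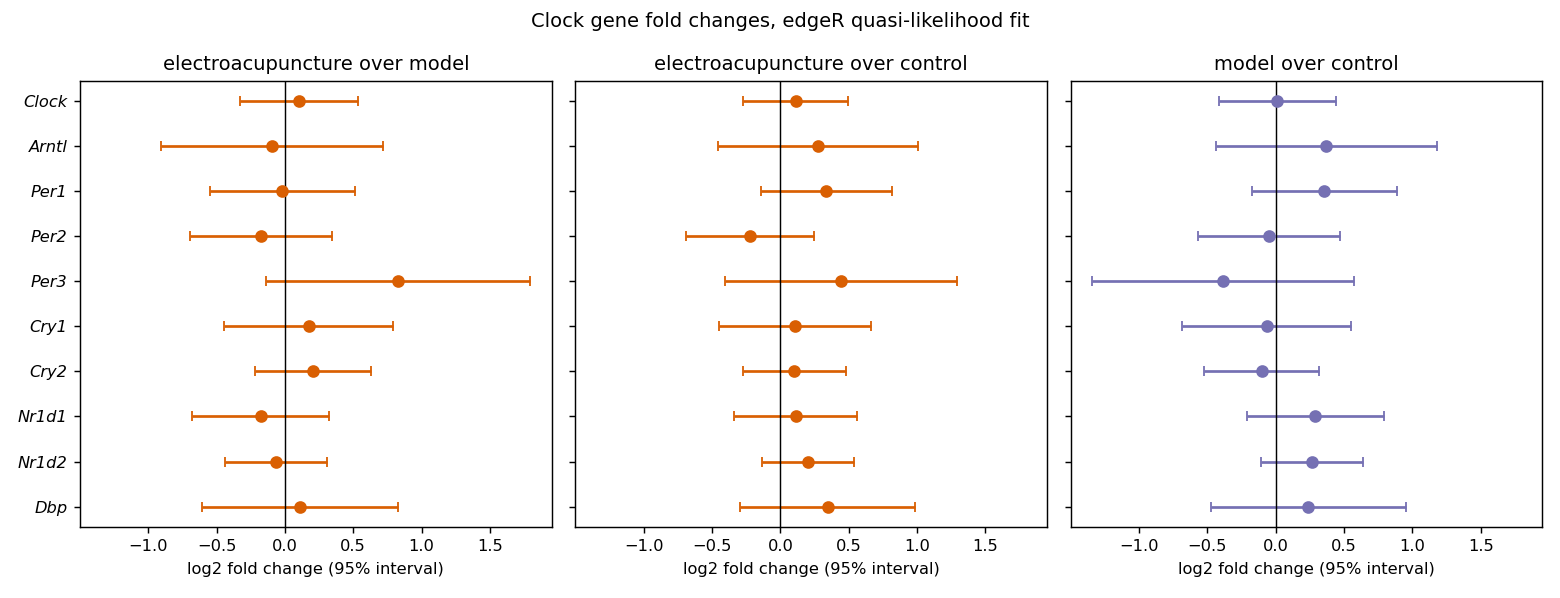
Log2 fold change of each clock gene (horizontal axis) with its 95% interval from edgeR's quasi-likelihood fit, in a panel for each of the 3 comparisons. All 30 intervals include 0, and the widest is that of Per3 for electroacupuncture over model, with a log2 fold change of 0.83.

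The 2 model samples differed from each other in several clock genes. Model B exceeded model A by a log2 difference of 1.29 for Arntl and 0.38 for Clock, and lay below it for Dbp (-0.81), Per3 (-0.80), Nr1d2 (-0.45), Cry1 (-0.43) and Per2 (-0.35). Higher Arntl thus stood beside lower Dbp, Per3 and Nr1d2, which are targets of its product, whereas Per1 (0.27), Cry2 (0.32) and Nr1d1 (0.07) were slightly higher in model B. The median size of this difference over the members was 0.41, against 0.37 over all tested genes; 22.1% of genes differed more than Dbp and 22.2% more than Per3. This is a description of 2 samples, which also differed in the neocortical, striatal and microglial markers given above. In model A and B, summed markers were 4229 and 8141 CPM for neurons, 3393 and 1192 CPM for astrocytes, 35088 and 18660 CPM for oligodendrocytes, and 1042 and 5427 CPM for red cells. The largest part of the astrocyte sum was Gfap (2259 and 502 CPM), and Aqp4 and Gja1 were also higher in model A. Slc1a2 (25.8 and 34.8 CPM) and Aldh1l1 (15.5 and 21.2 CPM) were higher in model B, so the astrocyte markers did not share a direction. The part of these differences in the clock genes was not tested.

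**Figure D3:**
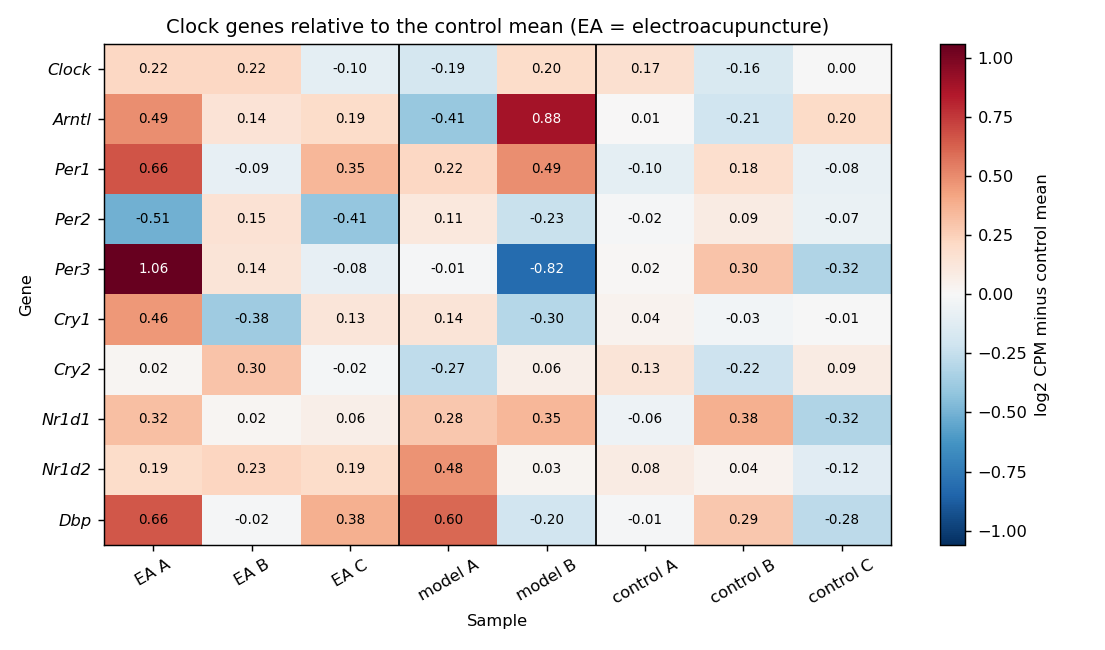
Log2 CPM of each clock gene (rows) minus the control mean, in each of the 8 samples (columns), with red for higher and blue for lower. Model A and model B have opposite colours for Arntl (-0.41 and 0.88) and Dbp (0.60 and -0.20), and electroacupuncture A reaches 1.06 for Per3.

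Electroacupuncture A was the other sample that stood apart. It held the highest value of the 8 samples for Clock, Per1, Per3, Cry1 and Dbp and the lowest for Per2. That is 5 members at the top and 1 at the bottom of 10, while the same sample was highest for 25% and lowest for 24% of all tested genes. Its summed striatal and microglial markers were the highest of all samples. Its summed neuronal markers were the lowest (2568 CPM over 5 genes, against 4229 to 8141 CPM elsewhere). Single markers differed from this: microglial Aif1 was higher in model A (80.8 against 61.3 CPM), and neuronal Rbfox3 lower there (74.7 against 78.9 CPM). In bulk tissue, fewer cells of a type and less RNA per cell cannot be told apart.

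The distance between a target and Arntl within a sample sets the loop's arms side by side, and transcript length cancels when samples are compared. It holds the level of Arntl itself, which was lowest in model A and highest in model B. Log2 CPM of Dbp minus that of Arntl was 3.21, 2.88 and 3.23 with electroacupuncture, 4.05 (A) and 1.96 (B) in the model, and 3.03, 3.54 and 2.56 in controls. The model samples again lay outside all others on opposite sides. The distance of Nr1d2 from Arntl had the same order of extremes, with 1.24, 1.62 and 1.54 in the electroacupuncture samples, 2.42 and 0.68 in the model samples, and 1.62, 1.78 and 1.22 in controls. For Per3 it was -0.06, -0.64 and -0.91 with electroacupuncture, -0.24 and -2.33 in the model, and -0.62, -0.12 and -1.16 in controls. Per1 and Nr1d1 had slightly higher levels in model B than in model A, and their distances from Arntl were nevertheless smaller in model B (0.997 and 1.45) than in model A (2.02 and 2.67).

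**Figure D4:**
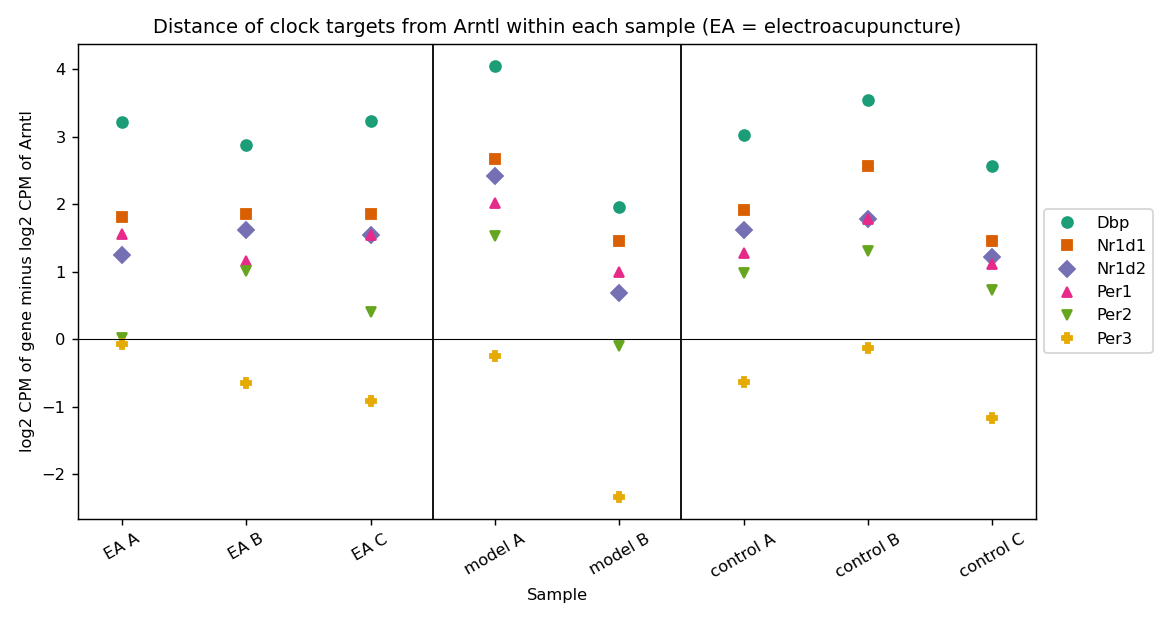
Log2 CPM of 6 targets of the activating pair minus log2 CPM of Arntl (vertical axis) in each sample (horizontal axis), with a symbol for each gene. Model A at 4.05 and model B at 1.96 bracket the other samples for Dbp, which lie between 2.56 and 3.54.

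Over the 8 samples, log2 CPM of Arntl was correlated with that of each of the 9 other members, with exact two-sided permutation tests and Benjamini-Hochberg adjustment over the 9. Clock went with Arntl (Pearson's r = 0.701, exact permutation p = 0.0529, adjusted p = 0.374, and Spearman's rho = 0.69, exact p = 0.0694, adjusted p = 0.312), and Per2 against it (r = -0.645, exact permutation p = 0.0832, adjusted p = 0.374, and rho = -0.738, exact p = 0.0458, adjusted p = 0.312). Neither passed the adjustment. Without the 2 samples farthest from the median of Arntl, model A and B, r was 0.547 for Clock and -0.748 for Per2. For Dbp r was -0.381 (exact permutation p = 0.358), and it turned to 0.346 without those samples, as did Nr1d2 (-0.44 and 0.32), Per3 (-0.246 and 0.435) and Cry1 (-0.17 and 0.55), so these negative relations rest on model A and B. The other r values were 0.503 for Per1, 0.505 for Cry2 and 0.075 for Nr1d1, with exact permutation p-values of 0.205, 0.2 and 0.856.

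The genes whose log2 CPM followed a member most closely over the 8 samples were listed for 3 members, by Pearson's r and as a description. For Arntl they were LOC102553962, Fam189b, Ints6l, Gpcpd1 and Tnnc1 (r of 0.943 to 0.982). For Dbp they were Rfx5, Glipr1, Evc2, Ogdh and Ehmt1 (0.961 to 0.971), and for Per1 they were Glul, Ppp4r1, Epha2, Smim3 and Nr1h2 (0.963 to 0.983). No other clock member was among them.

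A wider list of clock partners, modifiers and outputs had 27 genes that passed the filter on low counts. 0 of 27 passed in any of the 3 comparisons. In model against control, 6 of 27 had an unadjusted p under 0.05 (13.8% of all genes), and 7 lay above and 5 below the controls without overlap (18.2% and 19.6% of all genes). The median log2 fold change of the list was 0.07 there, 0.03 for electroacupuncture over model and 0.12 for electroacupuncture over control, against 0.02, 0.03 and 0.01 over all genes. For electroacupuncture over model, 5 of 27 had an unadjusted edgeR p under 0.05 (13.5% of all genes). Without overlap, 3 lay above and 4 below the model (12.9% and 11.7%). Over control it was 1 of 27 (3.66%), with 1 above and 1 below (5.98% and 4.88%).

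Npas2, a paralog of Clock that can pair with BMAL1 in the forebrain, measured 89.9, 44 and 31.4 CPM with electroacupuncture, 46.7 and 86.3 CPM in the model, and 31.7, 28 and 31 CPM in controls. Both model samples were above the controls, and its 2 highest samples, electroacupuncture A and model B, were also the 2 highest for Arntl. The log2 fold change of model over control was 1.14 (SE 0.43, adjusted p = 0.309 by edgeR). Rorb, a ROR receptor and also a marker of neocortical layers, measured 31, 23.3 and 28.7 CPM with electroacupuncture, 36.1 and 45.9 CPM in the model, and 22.9, 26.3 and 18.7 CPM in controls. The model samples were above all others, with log2 fold changes of 0.86 over control (SE 0.21, adjusted p = 0.172 by edgeR) and -0.57 for electroacupuncture over model (SE 0.21, adjusted p = 0.299).

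Hlf, a D-box activator related to Dbp, measured 101, 110 and 82.3 CPM with electroacupuncture, 117 and 192 CPM in the model, and 95.5, 98.8 and 101 CPM in controls. Unlike Dbp, it was higher in model B than in model A. Csnk1a1, a casein kinase that phosphorylates period proteins, measured 23.3, 29.1 and 27.3 CPM with electroacupuncture, 15.5 and 13.7 CPM in the model, and 22.6, 23.4 and 23.3 CPM in controls. The model samples lay below all others, with a log2 fold change of -0.66 over control (SE 0.16, adjusted p = 0.172 by edgeR) and of 0.86 for electroacupuncture over model (SE 0.16, adjusted p = 0.14). Tipin, a partner of Timeless at the replication fork, averaged 12.1 ± 1.77 CPM with electroacupuncture, 11 ± 0.626 CPM in the model and 7.87 ± 1.52 CPM in controls (SD). Fbxl21, a ligase subunit for cryptochromes, averaged 11.3 ± 6.87 CPM with electroacupuncture (19.1 CPM in A), 7.03 ± 1.04 CPM in the model and 5.99 ± 0.531 CPM in controls (SD).

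**Figure D5:**
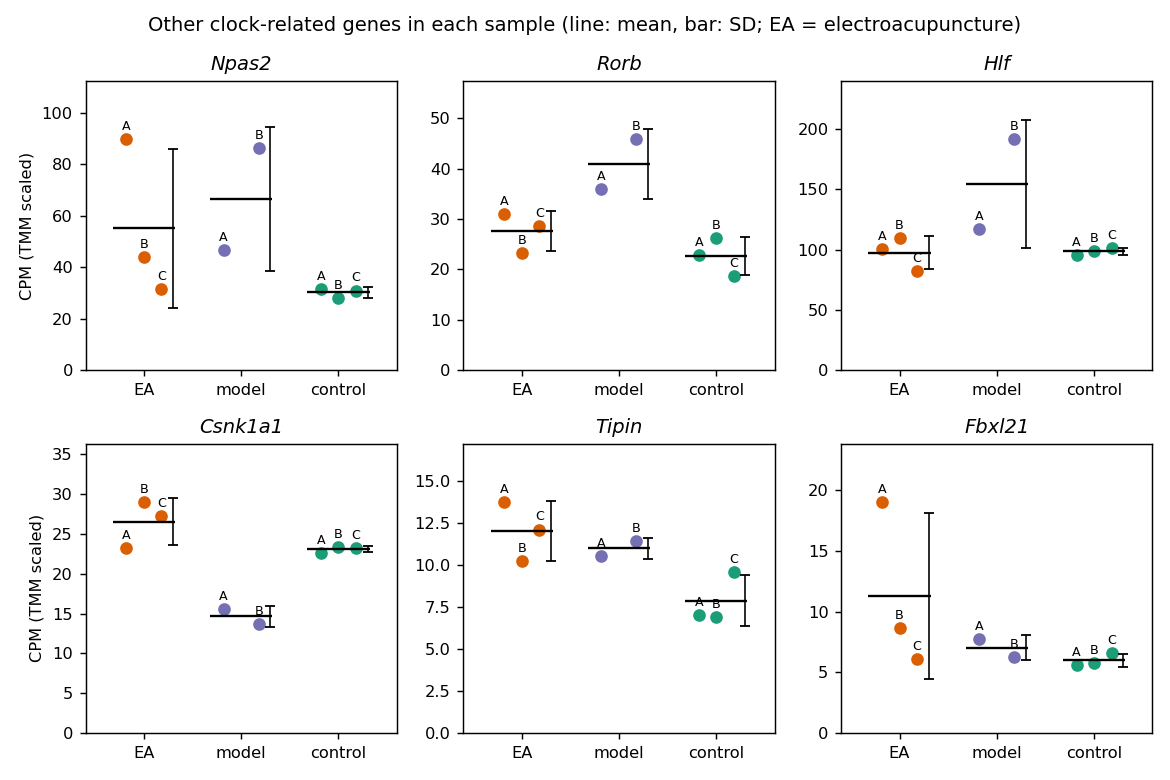
Level in CPM (vertical axis, from 0) of 6 other clock-related genes by group (horizontal axis), with a point for each sample marked by its letter, a line at the mean and a bar of 1 SD. Csnk1a1 at 15.5 and 13.7 CPM lies below all other samples in the model, and Rorb at 36.1 and 45.9 CPM above them.

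Signals that reach Per1 from outside the loop were described with lists of 14 activity and CREB targets and 12 glucocorticoid targets, of which 0 passed in any comparison. Of the 14 activity genes, 8 were higher in estimate for model over control, 12 for electroacupuncture over model and 9 for electroacupuncture over control, with median log2 fold changes of 0.26, 0.45 and 0.42. Of the 12 glucocorticoid targets 8, 10 and 9 were higher in the same comparisons, with medians of 0.09, 0.38 and 0.45. Over all tested genes 51.5%, 53.4% and 50.8% were higher, with medians of 0.02, 0.03 and 0.01. The mean log2 difference of the activity list from the control mean was 0.49, 0.70 and -0.43 with electroacupuncture (A to C), and -0.21 and 0.16 in the model. For the glucocorticoid list it was 0.64, -0.12 and 1.07, and 0.25 in both model samples. For electroacupuncture over model, 2 genes of each list had an unadjusted edgeR p under 0.05 (13.5% of all genes). Without overlap, 2 activity genes and 0 glucocorticoid targets lay above the model (12.9% of all genes). For model over control, 4 of 14 activity genes and 0 of 12 glucocorticoid targets had such a p (13.8% of all genes). Without overlap, 5 activity genes lay above and 5 below the controls (18.2% and 19.6%), and 1 glucocorticoid target above. For electroacupuncture over control, 3 genes of each list had such a p (3.66%). There, 1 activity gene lay above and 1 below the controls without overlap (5.98% and 4.88%), and 0 glucocorticoid targets. Arc, a postsynaptic immediate early gene, averaged 78.5 ± 25.8 CPM with electroacupuncture, 50.4 ± 2.33 CPM in the model and 133 ± 21.1 CPM in controls (SD), and Nr4a3, an activity-induced nuclear receptor, 31.7 ± 21.3 CPM with electroacupuncture, 11.9 ± 1.27 CPM in the model and 42.9 ± 12.5 CPM in controls. Dusp1, a phosphatase induced by activity and by glucocorticoids, measured 47, 43.8 and 38.9 CPM with electroacupuncture, 20.2 and 65.5 CPM in the model, and 16.7, 11 and 14.6 CPM in controls, with means of 43.3 ± 4.08 CPM with electroacupuncture, 42.9 ± 32.1 CPM in the model and 14.1 ± 2.86 CPM in controls. Egr1, also of the activity list, averaged 30.8 ± 17 CPM with electroacupuncture, 14.15 ± 5.54 CPM in the model and 23.2 ± 2.42 CPM in controls (SD). Fosb averaged 11.4 ± 7.91 CPM with electroacupuncture, 6.37 ± 0.901 CPM in the model and 3.91 ± 0.561 CPM in controls (SD). In estimate, Arc was lower and Per1 higher in the model than in controls, and neither passed.

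Among glucocorticoid targets, Sgk1, a kinase induced by corticosteroids, measured 231, 83.9 and 258 CPM with electroacupuncture, 62.2 and 110 CPM in the model, and 61.8, 81.7 and 87.9 CPM in controls. Electroacupuncture A and C were far above every other sample, and both were also above every control for Per1 (87.3 and 70.2 CPM). The model samples too were above every control for Per1 (64.1 and 77.3 CPM), with Sgk1 at 62.2 and 110 CPM. The log2 fold change of electroacupuncture over model was 1.15 (SE 0.48, adjusted p = 0.361 by edgeR). Ddit4, another steroid- and stress-induced gene, had the same 2 samples on top, with 83.1, 35.6 and 75.5 CPM with electroacupuncture, against 30.7 and 39.6 CPM in the model and 33.8, 43.5 and 32.5 CPM in controls. Fkbp5, a cochaperone of the glucocorticoid receptor, did not follow them, at 61.2, 157 and 94.3 CPM with electroacupuncture, 92.9 and 50.6 CPM in the model, and 50.1, 274 and 191 CPM in controls. Nfkbia was highest in model B (125 CPM), with 104 and 124 CPM in electroacupuncture A and C. Mt1 measured 114 and 94.5 CPM in those 2 samples and 101 CPM in model A. Tsc22d3 had electroacupuncture A and C on top (60.0 and 74.6 CPM), with A little above control B (57.1 CPM). Whether the glucocorticoid targets bear on Per1 was not tested.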

How the data were processed

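RNA was poly(A)-selected and sequenced as strand-marked paired-end libraries with molecular identifiers in the adapters, per the labels' protocols. The authors deposited 1 table of expected counts (estimated read counts per gene, partly with decimals, not normalized). The submitters' processing notes name featureCounts 1.5.0-p3, HISAT2 2.0.5, DESeq2 1.16.1 and StringTie 1.3.3b without roles. Not given in the sources used here are the genome build, the strand setting and whether the identifiers were used. Column names gave the group but not the labelled sample, and the 3 sham columns were taken as the control group. No column was left unused.

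Values were rounded, 4 duplicated symbols were summed, and columns of 1 group under 2 times the sampling variance apart (genes with at least 20 summed counts) were summed, which gave 8 samples of 9335913 to 23835724 counts. All 3 groups entered 1 fit in edgeR 4.0.16 (R 4.3.3) with TMM scaling, the default filter and robust two-sided quasi-likelihood F tests (5 residual degrees of freedom, biological coefficient of variation 36.8%), with Benjamini-Hochberg adjustment over all genes tested and calls under 0.05. Standard errors and 95% intervals were derived from the F statistic. Log2 CPM used a prior count of 2. DESeq2 1.42.0 was an alternative. The scripts were tested on simulated data. The labels do not say whether samples are separate animals; p-values therefore reflect only how far these samples spread, part of which may be technical.

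Members, lists and the summing of columns were chosen with earlier results of these data known. Named genes are all 10 members, up to 3 genes with the smallest p per wider list and comparison, and the 5 genes most correlated with Arntl, Dbp and Per1. Thra, the region and cell markers, and Ciart, Bhlhe41, Bhlhe40 and Tef were named outside this rule. Of the 10 symbols, 9 are current in RefSeq GRCr8, and Arntl is listed there as Bmal1.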

Additional observations from a re-analysis of the deposited data

How the results depend on the processing

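None of the 10 clock genes was called in any of the 48 alternative fits (16 for each comparison), and the lowest adjusted p of a member was 0.0859 (Per3, electroacupuncture over model, with the replicate block, log2 fold change 0.76, by edgeR); by comparison the lowest were 0.154 for model over control, 0.0859 for electroacupuncture over model and 0.539 for electroacupuncture over control. The number of all genes called was less stable, and the cause was not tested. For model over control, 1 gene was called, against 1129 with 11 separate columns, 786 with DESeq2, 0 with total counts, 294 with only the 2 groups compared, and 0 to 565 with a sample left out (565 without electroacupuncture A, 356 without model A). For electroacupuncture over model, 0 genes were called, against 1666 with 11 separate columns, 700 with DESeq2, and 0 to 308 with a sample left out (308 without model A, 278 without electroacupuncture A). For electroacupuncture over control, 0 were called, and 1 with DESeq2.

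A pairing by column number was left undecided: deviations of 10 same-numbered pairs correlated at -0.164 to 0.19, with 7 above 0.1, and 2 of 11 columns correlated best with their own number. Differently numbered pairs correlated at -0.334 to 0.296, with a smaller part of them above 0.1. Near-identical columns carry different numbers, so the check cannot exclude a pairing. The replicate block, on 11 separate columns, called 471 genes for model over control and 876 for electroacupuncture over model; it turned the log2 fold change of Per2 to 0.024 for model over control and of Cry1 to -0.035 for electroacupuncture over control. Total counts turned Per2 to 0.066, Cry1 to 0.050 and Cry2 to 0.000293 for model over control.

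Of 480 alternative fold changes of the members, 454 kept their direction and 26 reversed, the other reversals with a sample left out. For model over control the log2 fold changes then ranged from -0.20 to 0.19 for Clock, -0.43 to 0.87 for Arntl, -0.24 to 0.11 for Per2, -0.31 to 0.13 for Cry1, -0.28 to 0.047 for Cry2 and -0.22 to 0.58 for Dbp. For electroacupuncture over model they ranged from -0.079 to 0.31 for Clock, -0.60 to 0.70 for Arntl, -0.21 to 0.15 for Per1, -0.42 to 0.010 for Per2, -0.040 to 0.41 for Cry1, -0.27 to 0.18 for Nr1d2 and -0.24 to 0.57 for Dbp. For electroacupuncture over control they ranged from -0.11 to 0.31 for Cry1, -0.0072 to 0.17 for Cry2 and -0.031 to 0.32 for Nr1d1. Where leaving out a model sample left 1, that sample was assumed to vary like the other groups. The lowest count of a member in a column was 58 (Per3); whether depth or the number of samples limited the tests was not tested.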

Other observations

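Some feedback and output genes outside the 10 members had patterns of their own; they were chosen for description after their values were seen. Ciart, a repressor of CLOCK and BMAL1 that cycles strongly in mice, measured 17.2, 12.8 and 26.5 CPM with electroacupuncture, 22.5 and 16.5 CPM in the model, and 9.26, 24.9 and 9.34 CPM in controls. Control B, the highest control for Ciart, was also the highest control for Nr1d1, Dbp, Per1 and Per3 and the lowest for Arntl. Bhlhe41, an E-box repressor, measured 133, 82.5 and 91.9 CPM with electroacupuncture, 104 and 52.3 CPM in the model, and 97.2, 96.2 and 71.8 CPM in controls, so that its highest and lowest samples, electroacupuncture A and model B, were those of Per3. Its relative Bhlhe40 measured 23.2, 27.5 and 32.7 CPM with electroacupuncture, 17.8 and 36.5 CPM in the model, and 26.5, 27.4 and 20.5 CPM in controls, with model A lowest and model B highest as for Arntl. Tef, the third D-box activator, stayed within 142 to 195 CPM in all 8 samples.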
